A study of Mus musculus with 3 samples.

Results

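H3K4me3 peaks that lay inside gene bodies, away from the start of the nearest gene, were followed across 3 ChIP-seq libraries of the mouse lung fibroblast line MLg. A peak was taken as a gene body peak when its centre lay more than 1000 bp from the nearest transcription start site (TSS) in the deposited list and its deposited annotation was an intron, an exon, a UTR, a transcription termination site (TTS) or a non-coding transcript. This rule used position only and no measured value. It took 1412 of the 22802 peaks of the 3 lists, and these peaks merged into 786 regions. Peaks within 1000 bp of a TSS merged into 8594 regions, called promoter regions here, and intergenic peaks into 321. All peaks merged together gave 9316 regions. Each class was merged by itself, so a gene body region can overlap a promoter region, and the classes are not separate parts of the 9316.

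All libraries came from the same line and were made with the H3K4me3 antibody ab8580. TGFB1+miR-9-LOF cells received an antagomiR against miR-9-5p at 60 nM, then TGFB1 at 5 ng/ml for 4 h beginning 20 h after transfection, and were collected at 24 h. TGFB1 cells received the cytokine on the same schedule without loss of miR-9, and Ctrl cells, labelled WT, received no TGFB1. In the paper, cells of this experiment received either a control or the miR-9 antagomiR, and the untreated cells received the control. The labels of the TGFB1 and Ctrl libraries do not state a control probe. Each group had 1 library of 1 established line, so no difference has a replicate check, no p-value was computed, and the 95% intervals given for shares (Wilson) and medians (order statistics) cover counting error only. The sequencing depth was unknown here.

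The lists held 4959 peaks in TGFB1+miR-9-LOF, 9116 in TGFB1 and 8727 in Ctrl, and TGFB1+miR-9-LOF therefore stood apart from the others before any class of peak was examined. Peak scores, which are deposited for each peak and not scaled between libraries, had a median of 46 in TGFB1+miR-9-LOF, 89 in TGFB1 and 79 in Ctrl. Of 10 fibroblast marker genes, 4, 6 and 5 had a promoter peak in TGFB1+miR-9-LOF, TGFB1 and Ctrl, among them Col1a1, Col1a2, Pdgfrb and Fn1 in every library, whereas Col3a1, Vim, Thy1 and Tcf21 had none. S100a4, counted in TGFB1 only, had its peak centre at 1000 bp, the limit for a promoter peak. No epithelial or endothelial marker had one. Of the 5 immune and 4 neural markers, only Cd14 and Nes did, in TGFB1 and in Ctrl.

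H3K4me3 is placed on nucleosomes around active start sites by the SET1 and MLL methyltransferase complexes, which are drawn to unmethylated CpG islands, and it is read by proteins of the transcription machinery. Many mammalian genes carry more than 1 promoter, so that a start inside the gene body gives a shorter transcript, a transcript of another gene or a non-coding RNA, and such internal starts can carry the mark. TGFB1 drives fibroblasts towards matrix-producing myofibroblasts, and miR-9 is a microRNA best known for repressing transcripts in the cytoplasm, which the study examined in the nucleus.

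By deposited annotation, 621 regions were intronic, 439 of them in the first intron, 108 exonic, 16 at a TTS, 16 in non-coding transcripts, 15 in a 3′ UTR and 10 in a 5′ UTR. They lay in 766 host genes, and in 85 regions the host was another gene than that of the nearest TSS. Gene body peaks fell into a promoter-proximal class and a distal class. In 611 regions at least 1 peak centre lay 1001 to 2000 bp from the nearest TSS. Of these near regions 598 lay on the downstream side and 149 reached the TSS itself. In 175 regions every peak centre lay beyond 2000 bp, the limit that the study itself set for gene bodies, and none of these far regions reached the TSS. The far regions had a median deposited distance of 13512 bp (interquartile range 4803.5 to 44999), and the farthest was listed at 459002 bp, inside the neuronal adhesion gene Cntnap5b. Of the far regions, 139 were intronic, and 44 of these 139 lay in the first intron, against 395 of 482 intronic near regions. In the host transcript, far regions sat a median of 46.9% of the way along (41.0 to 55.4), against 5.70% (4.99 to 6.86) for near regions.

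The following sequences show what kinds of DNA lay under far peaks, which no summary of lengths conveys. In each region the 200-bp window with the most CpG outside annotated exons was found, and its 30 bases richest in CpG are printed from the RefSeq copy of GRCm38.p6 (the assembly of mm10), on the plus strand 5′ to 3′. Capitals mark CpG dinucleotides. Mical3 chr6:121109897-121109926, Agap1 chr1:89580124-89580153 and Dleu2 chr14:61648350-61648379 are CpG-rich internal sites, with 31, 27 and 37 CpG in their windows. Foxn3 chr12:99392045-99392074 had 15 CpG in its window and Wwp2 chr8:107546693-107546722 had 10. Kdm2a chr19:4333170-4333199 with 4 and Tm4sf1 chr3:57293839-57293868 with 5 had few CpG outside exons and a peak in every library, although both regions, exons included, held a window that met the CpG island criteria given after the sequences. Akap9 chr5:4053106-4053135 and Zswim6 chr13:107859175-107859204 lie in tandem repeats, and the Zswim6 window held 0 CpG.
Mical3: ccaCGcatCGgggCGcCGCGgccaccCGCG
Agap1: ccctcCGcCGCGctCGcCGcCGcctcCGCG
Dleu2: CGctCGCGctgacaggtCGggCGgCGgcCG
Foxn3: cctccttgCGCGCGcaCGcaCGcaCGCGct
Wwp2: CGgagctaagtctgCGctcCGcctacaaCG
Kdm2a: CGgtggggccaagtcCGcaatggtttcatt
Tm4sf1: CGaggagtccattaggtttcaaCGtcttaa
Akap9: CGtgtgcatgtgtaaggtgCGgtgatgaaa
Zswim6: ctccaggtgacagcacctgcagatacttca

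In the 200-bp windows, the bases of Zswim6 matched those 39 bases further on at 100% of positions, and those of Akap9 matched at a shift of 44 bases at 76.9% of positions, whereas the best shift in Mical3 gave 43.4%. The windows of Mical3 and Agap1 had a GC content of 78.5% and 75.5%, against 39.0% for Tm4sf1 and 47.5% for Kdm2a.

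Over whole regions, far regions were CpG-rich relative to their surroundings and less so than promoters. The ratio of observed to expected CpG had a median of 0.504 (0.448 to 0.546) in the far regions, 0.625 in near regions and 0.662 in promoter regions, against 0.203 in flanks of the same width 5000 bp away from the far regions. A window of 200 bp that met the CpG island criteria (GC from 50%, observed over expected CpG from 0.6) occurred in 78.3% of the far, 92.6% of the near and 98.1% of the promoter regions, and in 17.1% of those flanks. Over the whole region these criteria were met by 49 of 175 far regions. The G-quadruplex pattern of 4 runs of at least 3 G with gaps of at most 7 bases, on either strand, was found in 58.9% of the far, 65.6% of the near and 67.0% of the promoter regions.

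Annotated starts lay under more than 50% of the far regions. A GENCODE start of any transcript lay inside 97 of 175 far regions (55.4%), and 68 held a start of a protein-coding transcript. The host gene's own start lay in 82 of them, and 15 held only a start of another gene. The remaining 78 far regions (44.6%) held no annotated start. In comparison, 65.1% of near, 98.1% of promoter and 49.8% of intergenic regions held a start. Starts were used by the rule, through the distance column, so these shares describe the regions and are not a finding about them.

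Near the distance limit, regions inside and outside the rule looked alike. The closest members, at 1001 bp in Ctrl, were at Actr3, a subunit of the actin-nucleating Arp2/3 complex (2323 bp, score 101), Pim3, a serine/threonine kinase (1983 bp, score 76) and the nuclear receptor Nr2f6 (1824 bp, score 144). The closest peaks outside, at 1000 bp in Ctrl, were at the actin monomer binder Pfn1 (2454 bp, score 95), the myosin light chain Myl12a (2095 bp, score 159) and Cbfb, the partner subunit of RUNX factors (1790 bp, score 73).

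Taken as a class, gene body peaks were longer and scored lower than promoter peaks, but those beyond 2000 bp were shorter. Their share of the list was 6.21% in TGFB1+miR-9-LOF, 6.15% in TGFB1 and 6.22% in Ctrl, so it was nearly equal in lists of unequal size. Their median length was 1479 bp in TGFB1+miR-9-LOF, 1999 bp in TGFB1 and 1949 bp in Ctrl, against 1337, 1746 and 1690 bp for promoter peaks in the same order. Peaks beyond 2000 bp had medians of 1328, 1528 and 1539 bp in that order. Broad domains of at least 2700 bp, the study's limit, made up 0.649% of gene body peaks in TGFB1+miR-9-LOF, 8.73% in TGFB1 and 7.18% in Ctrl, against 0.0439%, 1.67% and 1.22% of promoter peaks. A peak that spreads far into a gene has its centre far from the TSS, so the rule itself takes long peaks. The median score was 43, 75 and 68 for gene body peaks and 46, 91 and 81 for promoter peaks, in the order TGFB1+miR-9-LOF, TGFB1 and Ctrl.

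For each region, the covered length was the number of its bp under any peak of a library, so a near region could also be covered by a peak that the list assigns to the promoter. Regions were bounded by gene body peaks, and in 291 regions, 290 of them near, a peak of another library ran past these bounds, so that its cover is less than the length of the whole peak. A far region had a peak in 43 of 175 cases in TGFB1+miR-9-LOF (24.6%, 18.8 to 31.5), in 166 in TGFB1 (94.9%) and in 141 in Ctrl (80.6%). For near regions the numbers were 402 of 611 (65.8%), 599 and 599 (98.0% each). Where covered, the far regions had a median of 1324 bp in TGFB1+miR-9-LOF, 1512.5 bp in TGFB1 and 1512 bp in Ctrl, and the near regions 1473, 1975 and 1930 bp.

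**Figure D1:**
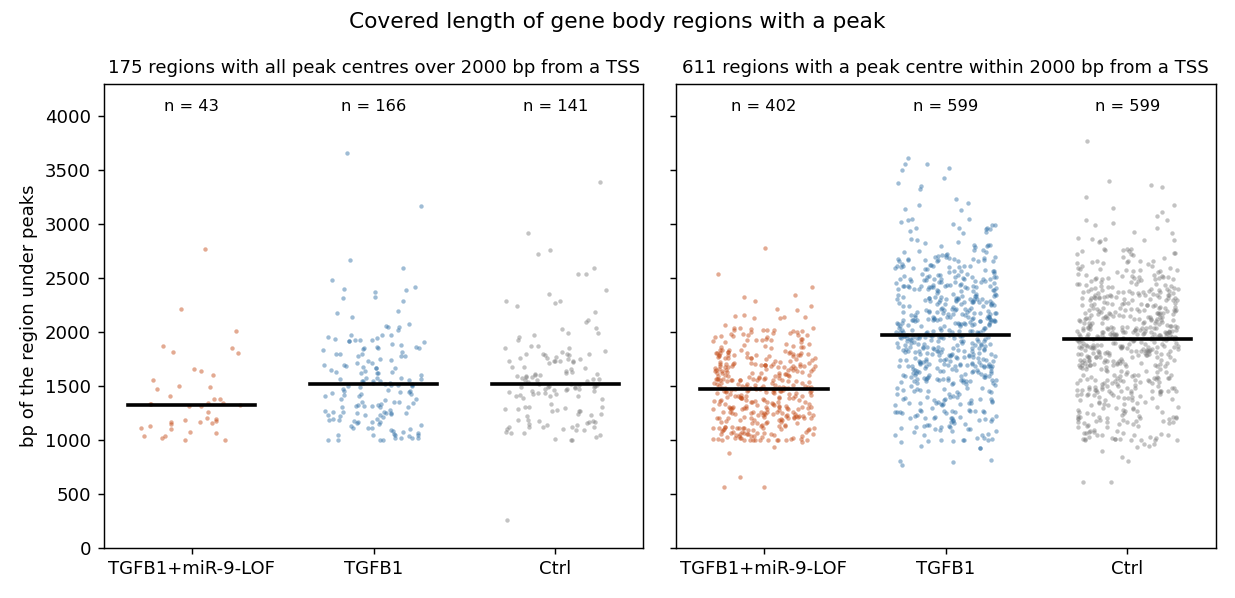
Covered length in bp (y axis) of near and far gene body regions with a peak, in TGFB1+miR-9-LOF, TGFB1 and Ctrl, each point a region and each black line a median. The far regions of TGFB1+miR-9-LOF (43 of 175) sit lowest, with a median of 1324 bp, and TGFB1 and Ctrl nearly coincide in each class.

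The most frequent pattern among the far regions was a peak in TGFB1 and Ctrl and none in TGFB1+miR-9-LOF. It took 91 of 175 far regions (52.0%), whereas 41 (23.4%) had a peak in every library, 32 (18.3%) in TGFB1 only, 9 in Ctrl only and 2 in TGFB1+miR-9-LOF and TGFB1. Among near regions 399 of 611 (65.3%) had a peak in every library and 188 (30.8%) in TGFB1 and Ctrl only. Of the intergenic regions, 41.1% had a peak in TGFB1 and Ctrl only, 30.5% in every library and 20.6% in TGFB1 only. Over all 9316 regions these shares were 38.5%, 52.8% and 6.11%. The TGFB1-only share of far regions was thus near that of intergenic regions. No gene body region had a peak in TGFB1+miR-9-LOF alone, and 4 of all regions did. The far regions found in every library had a higher median score in TGFB1 than those found in TGFB1 and Ctrl only (87 against 59) and lay farther from a TSS (26302 against 10649 bp), with a lower ratio of observed to expected CpG (0.408 against 0.534). Far regions found in TGFB1 only had a median score of 41.5.

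**Figure D2:**
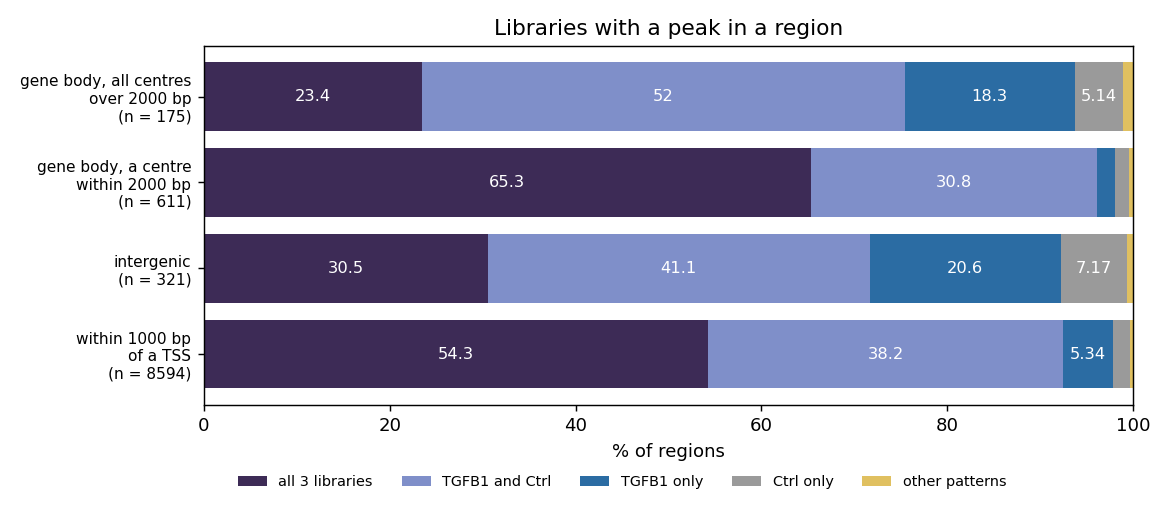
Share of regions in percent (x axis) by the libraries in which they had a peak, for far and near gene body regions, intergenic regions and promoter regions. Peaks in TGFB1 and Ctrl without one in TGFB1+miR-9-LOF are the most frequent far pattern (91 regions), and peaks in every library the most frequent near pattern (399 regions).

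TGFB1 and Ctrl were compared to see how 4 h of the cytokine changed these regions. In the full lists gained peaks were mostly distal, and lengths hardly differed. A region was called gained when only the first library of a comparison had a peak, and lost when only the second had one. In TGFB1 over Ctrl, 46 of 786 regions were gained (5.85%, against 6.36% of all 9312 regions with a peak in either library), and 21 of the 740 covered in Ctrl were lost (2.84%, against 2.39%). Both counts were near those of all regions. Split by class, 34 of 175 far regions were gained (19.4%, 14.2 to 25.9), against 12 of 611 near regions (1.96%, 1.13 to 3.40). Intergenic regions gave 66 of 319 (20.7%, 16.6 to 25.5), so the far share was not particular to gene bodies. With the lists cut to equal length, an alternative chosen after seeing the data, 65 gene body regions were gained (15.4%, against 15.2% of all regions) and 56 were lost. Among regions of peaks beyond 2000 bp, 15 of 54 were then gained (27.8%) and 14 of 39 lost (35.9%). Over all regions this cut gave 888 gained and 888 lost, since lists of equal length tie gains to losses. Near-equal numbers in the distal class are therefore set largely by the cut.

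Of the 719 gene body regions covered in both libraries, 377 were longer in TGFB1, 288 were shorter and 54 were equal. On the log2 scale the ratio of covered length had a median of 0.015 (0 to 0.038), against 0.060 over all regions. Regions at least 1.5-fold longer in TGFB1 numbered 32 (4.45%, against 1.89% of all regions) and those at least 1.5-fold shorter numbered 6 (0.834%, against 0.317%). All regions were bounded by every peak, which changes the length over which a ratio is taken. By whole peaks, taking the widest in each library, 434 gene body regions were longer and 285 shorter in TGFB1, with a median of 0.052, and 42 were at least 1.5-fold longer and 14 at least 1.5-fold shorter.

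Several of the largest increases were annotated to exons, UTRs or a non-coding transcript. Itpripl2 had 1102 bp in TGFB1+miR-9-LOF, 3352 bp in TGFB1 and 1862 bp in Ctrl, in its 3′ UTR. Malat1, an abundant nuclear non-coding RNA, had 1633, 3607 and 2260 bp in the same order. In both, TGFB1 was high and the other libraries low, with TGFB1+miR-9-LOF lowest. Single-exon forkhead genes of mesenchyme showed the same order: Foxd1 had whole peaks of 0 bp in TGFB1+miR-9-LOF, 2175 bp in TGFB1 and 1361 bp in Ctrl. Foxc2 had 1569 bp in TGFB1+miR-9-LOF, 3229 bp in TGFB1 and 1994 bp in Ctrl. Arhgef11, a guanine nucleotide exchange factor, had 0, 2414 and 1171 bp in that order, although its score was lower in TGFB1 (38) than in Ctrl (65).

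Shorter regions in TGFB1 included genes of growth control and adhesion. Btg1, an antiproliferative cofactor, had 1202 bp in TGFB1+miR-9-LOF, 2725 bp in TGFB1 and 3770 bp in Ctrl, the longest gene body cover in Ctrl. Fgf7, a growth factor that fibroblasts secrete towards epithelium, had 0, 2556 and 3245 bp. In both genes Ctrl was highest, while the score was higher in TGFB1 than in Ctrl (72 against 40 for Btg1, 68 against 44 for Fgf7), so length and score ran in opposite directions. Flrt2, an adhesion and guidance receptor, was the far region with the largest decrease, at 0 bp in TGFB1+miR-9-LOF, 2074 bp in TGFB1 and 2760 bp in Ctrl.

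Gained far regions included Agap1, an Arf GTPase-activating protein of endosomes (1677 bp in TGFB1, score 75, and 0 bp in TGFB1+miR-9-LOF and Ctrl). Its CpG-rich site is printed above, and its deposited distance was 103123 bp, although GENCODE places a start inside the region. Abca17, an ABC transporter gene, had 1102 bp in TGFB1+miR-9-LOF, 1750 bp in TGFB1 and 0 bp in Ctrl. It was 1 of the 2 gene body regions covered in TGFB1+miR-9-LOF and not in Ctrl. Ltbp4, which tethers latent TGFB to the matrix, had 0 bp in TGFB1+miR-9-LOF, 1566 bp in TGFB1 and 0 bp in Ctrl.

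**Figure D3:**
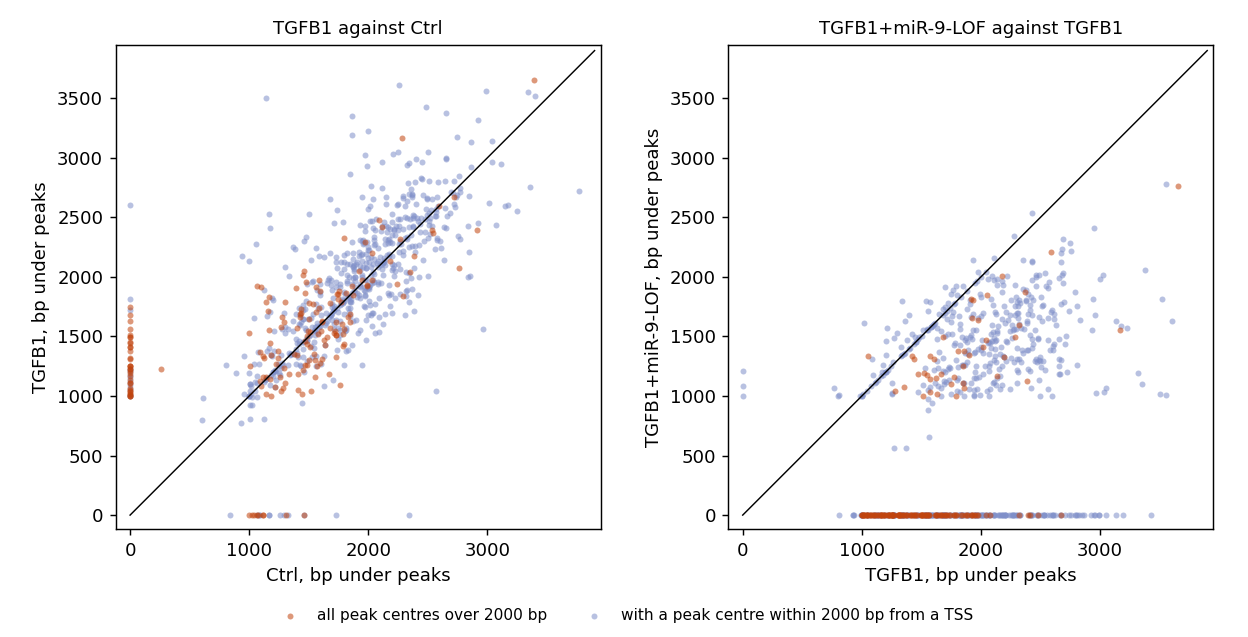
Covered length in bp of each gene body region in pairs of libraries, TGFB1 against Ctrl and TGFB1+miR-9-LOF against TGFB1, with the line of equal length, far regions in orange and near regions in blue. Points lie on both sides of the line for TGFB1 against Ctrl (377 longer, 288 shorter) and mostly below it for TGFB1+miR-9-LOF against TGFB1 (45 longer, 352 shorter).

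TGFB1+miR-9-LOF was compared with TGFB1 to ask what loss of miR-9 did to these regions in the presence of the cytokine. Of 765 regions covered in TGFB1, 323 lacked a peak in TGFB1+miR-9-LOF (42.2%, against 45.7% of all regions), and 3 were gained (0.391%, against 0.11%). The loss was therefore of the size seen over all regions. Of the 442 regions covered in both, 352 were shorter and 45 longer in TGFB1+miR-9-LOF, with a median log2 ratio of -0.45 (-0.50 to -0.40). At least 1.5-fold shorter were 157 (35.5%, against 34.5%), and at least 1.5-fold longer was 1 (0.226%, against 0% of all regions). By whole peaks, 437 of the 442 were shorter and 5 longer, with a median of -0.55. The direction of gain and loss depended on list length: with the 4959 highest-scored peaks of each list, a cut chosen after seeing the data, 48 of 366 regions were lost in TGFB1+miR-9-LOF (13.1%, against 21.6% of all regions) and 104 of 470 were gained (22.1%, against 17.8%). This cut kept TGFB1 peaks only from a score of 85, so a gain can be a TGFB1 peak that the cut removed. The shorter cover remained in these lists, at a median of -0.36.

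Set against Ctrl, TGFB1+miR-9-LOF lacked a peak at 297 of 740 regions (40.1%, against 43.5% of all regions) and had 2 that Ctrl lacked (0.270%, against 0.309%). Of the 443 regions covered in both, 130 were at least 1.5-fold shorter (29.3%, against 27.1%) and 5 at least 1.5-fold longer (1.13%, against 0.0203%). The median log2 ratio was -0.40. By whole peaks, only 1 was at least 1.5-fold longer. With lists of equal length 47 were lost and 112 were gained, and the median was -0.35. Both contrasts of TGFB1+miR-9-LOF contain the same library, so they are not separate observations.

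Distal peaks were missing from TGFB1+miR-9-LOF more often than proximal ones. Of the far regions covered in TGFB1, 123 of 166 were lost (74.1%, 66.9 to 80.2), against 200 of 599 near regions (33.4%). Intergenic regions lost 198 of 296 (66.9%, 61.3 to 72.0), so the far share was not particular to gene bodies. Against Ctrl, 100 of 141 far regions were lost (70.9%). With lists of equal length, 13 of 40 regions of peaks beyond 2000 bp were lost against TGFB1 (32.5%, against 13.1% of gene body regions and 21.6% of all regions). Gained were 28 of 68 (41.2%, against 22.1% and 17.8%). The lost share of distal peaks was thus still the higher one. The cut kept TGFB1+miR-9-LOF peaks down to a score of 22 but TGFB1 peaks only from 85. In the full lists 0 far regions were gained over TGFB1, so a gain here can be a TGFB1 peak that the cut removed. Far peaks scored lower, with a median of 61 in TGFB1 against 91 for near regions, so regions were also compared within bins of the TGFB1 score. At scores of 23 to 49, 3 of 50 far regions had a peak in TGFB1+miR-9-LOF (6.0%), against 10 of 71 near (14.1%) and 57 of 840 promoter regions (6.79%). At 50 to 74 the shares were 18.8% of the far, 42.0% of the near and 24.5% of the promoter regions. At 75 to 99 they were 48.6%, 69.5% and 54.3%. The far share was below the near share in each of these 3 bins, but their intervals overlapped at 23 to 49 and at 75 to 99, and the far intervals overlapped those of promoters in each of them. At 100 to 124, 3 of 9 far regions were kept (33.3%, 12.1 to 64.6), against 91.2% of the near and 78.5% of the promoter regions. At 125 and above, all 8 far regions and 117 of 119 near regions were kept.

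**Figure D4:**
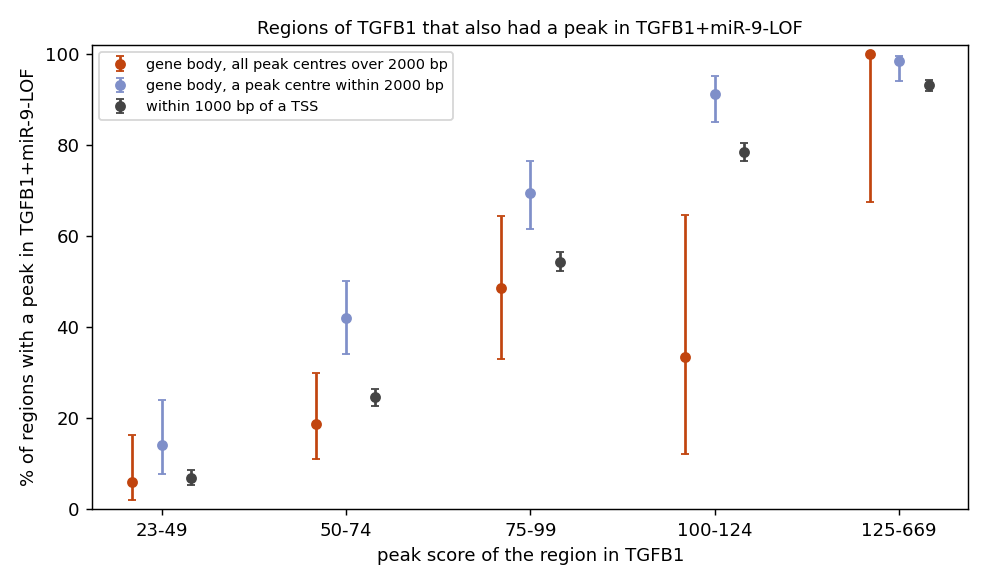
Share in percent of regions covered in TGFB1 that also had a peak in TGFB1+miR-9-LOF (y axis), by the TGFB1 peak score (x axis, bins), for far, near and promoter regions with 95% Wilson intervals. The share is higher in higher score bins for near and promoter regions, and far regions lie near promoter regions up to a score of 99 (48.6% against 54.3%).

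Base composition and annotated starts divided the kept from the lost far regions only weakly. Far regions with a CpG island window kept a peak in 32 of 130 cases (24.6%, 18.0 to 32.7) and those without in 11 of 36 (30.6%, 18.0 to 46.9). The intervals overlap. A start of the host gene went with 26 of 79 kept (32.9%), a start of another gene only with 2 of 15, and no annotated start with 15 of 72 (20.8%). Of the 34 far regions gained in TGFB1, 21 held no annotated start.

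At single genes, the regions lost from TGFB1+miR-9-LOF included long ones. Rbpj, the DNA-binding factor of Notch signalling, had 0 bp in TGFB1+miR-9-LOF, 3430 bp in TGFB1 and 2485 bp in Ctrl. Fzd7, a Wnt receptor, had 0, 2993 and 2404 bp in this order. Fscn1, which bundles actin in filopodia, had 0, 2961 and 3035 bp and a TGFB1 score of 118. Each was long in TGFB1 and also covered in Ctrl. Among regions kept but shortened, Ppp1r18, an actin-associated regulator of protein phosphatase 1, had 1011 bp in TGFB1+miR-9-LOF, 3553 bp in TGFB1 and 3345 bp in Ctrl. The tubulin gene Tuba1c had 1194, 3321 and 2922 bp, while its score was 76 in TGFB1+miR-9-LOF, 70 in TGFB1 and 86 in Ctrl, so that the mark was narrow there without a low score.

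Few regions went the other way. The region that was at least 1.5-fold longer in TGFB1+miR-9-LOF was that of Etv4, an ETS factor downstream of FGF signalling, but its whole peaks measured 1614 bp in TGFB1+miR-9-LOF, 1836 bp in TGFB1 and 1608 bp in Ctrl, so the peak itself was not longer there than in TGFB1. By whole peaks 1 other region, a near one, was at least 1.5-fold longer than in TGFB1. The 3 regions gained over TGFB1 were Crebzf, a bZIP cofactor (1207, 0 and 2341 bp), Anp32b, a histone chaperone (1000, 0 and 1726 bp), and Rbm15b, an RNA-binding protein of the m6A writer complex (whole peaks of 1088, 0 and 1040 bp). All 3 had a peak in Ctrl too, so it was TGFB1 that stood apart.

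Among the largest regions, several belonged to stress, growth and signalling genes. Ppp1r15b, which brings protein phosphatase 1 to eIF2 alpha, had 2776 bp in TGFB1+miR-9-LOF, the longest gene body cover there, 3558 bp in TGFB1 and 2987 bp in Ctrl. Vegfa, the endothelial growth factor, had 1816, 3517 and 3398 bp. Dusp5, a phosphatase that inactivates ERK, had 2414, 2950 and 3111 bp. TGFB1+miR-9-LOF was lowest at each of them, and the order of TGFB1 and Ctrl varied. By score, the strongest gene body peaks of TGFB1+miR-9-LOF were at Akap9 (113), Cavin1, a coat protein of caveolae (112), and the matrix genes Fbln2 (94) and Sparc (92).

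Genes of the extracellular matrix and the myofibroblast, the cell state that TGFB1 induces, all had their regions in the near class. Of 45 genes listed, 16 had a region, covered in 11 cases in TGFB1+miR-9-LOF, 15 in TGFB1 and 15 in Ctrl. In TGFB1 over Ctrl 10 were longer and 4 shorter, with a median log2 ratio of 0.14, against 0.015 over all gene body regions (0.18 against 0.052 by whole peaks). Itgb1, the beta chain of fibronectin and collagen receptors, had 1056 bp in TGFB1+miR-9-LOF, 2562 bp in TGFB1 and 1737 bp in Ctrl, and TGFB1 was widest. The actin crosslinker Actn1 had 1388, 2389 and 1969 bp, and Lox, which crosslinks collagen, was covered in TGFB1 only (1209 bp). Col12a1 went the other way and was covered in Ctrl only (1328 bp). In TGFB1+miR-9-LOF over TGFB1, all 11 regions covered in both were shorter, with a median of -0.63 against -0.45 over all gene body regions. By whole peaks the medians were -0.63 and -0.55, and 437 of 442 gene body regions were shorter. Vcan, Fbn1, Ccn1 and Lox were lost, 4 of 15 (26.7%, against 42.2% of gene body regions and 33.4% of near regions).

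Genes of the TGFB and BMP pathway had 15 regions, of which 6, 15 and 14 were covered in TGFB1+miR-9-LOF, TGFB1 and Ctrl. Of these 15, 13 were near, and 9 were lost in TGFB1+miR-9-LOF (60.0%, against 42.2% of gene body regions and 33.4% of near regions). Among ligands, Tgfb2 (0, 1941 and 1596 bp) and Tgfb3 (0, 1528 and 1913 bp) were not covered in TGFB1+miR-9-LOF, whereas Tgfb1 itself was (1250, 2066 and 2264 bp). Extracellular antagonists differed: Grem1 had 1593, 2633 and 2327 bp, and Fst whole peaks of 0, 2072 and 1849 bp. Among intracellular inhibitors, Pmepa1 (0, 2759 and 2024 bp), Ski (0, 2433 and 2506 bp) and Smad6 (0, 2036 and 2341 bp) had none in TGFB1+miR-9-LOF, and the ubiquitin ligase Smurf2 had whole peaks of 1471, 2127 and 1860 bp. In all of these the order is TGFB1+miR-9-LOF, TGFB1 and Ctrl. Between TGFB1 and Ctrl the list moved in both directions, with 6 regions longer and 7 shorter and a median of -0.02 (8 longer and 6 shorter by whole peaks, median 0.10).

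Transcription factors of fibroblasts gave 27 regions from 65 genes, 25 of them near, with 15, 26 and 26 covered in TGFB1+miR-9-LOF, TGFB1 and Ctrl. Of the 26 covered in TGFB1, 11 were lost in TGFB1+miR-9-LOF (42.3%, against 42.2% of gene body regions and 33.4% of near regions). The mesenchymal factor Twist2 had whole peaks of 1475 bp in TGFB1+miR-9-LOF, 2642 bp in TGFB1 and 2745 bp in Ctrl, and Prrx1 had 2321, 2691 and 2459 bp. Both had a peak in every library, with TGFB1+miR-9-LOF lowest. Tbx3, a T-box repressor, had 0 bp in TGFB1+miR-9-LOF, 2079 bp in TGFB1 and 1302 bp in Ctrl. Zfp521, a zinc finger factor of mesenchymal progenitors, was covered in TGFB1 only (2601 bp), at a low score of 30.

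Regions in chromatin regulators were mostly distal, and 10 of 16 were far, against 175 of 786 overall. The regions came from 12 of 71 genes and were covered in 6, 16 and 13 cases in TGFB1+miR-9-LOF, TGFB1 and Ctrl, and 10 of 16 were lost in TGFB1+miR-9-LOF (62.5%, against 42.2% of all gene body regions and 74.1% of far regions). Kdm2a, an H3K36 demethylase with a CpG-binding zinc finger, had 1847 bp in TGFB1+miR-9-LOF, 2052 bp in TGFB1 and 1922 bp in Ctrl, in intron 12 of 20. Kdm6b, the H3K27 demethylase, had 1551, 3170 and 2284 bp. Both were kept, with TGFB1 highest. The chromodomain remodeller Chd9 had 3 far regions, none covered in TGFB1+miR-9-LOF, of 1311, 1973 and 1371 bp in TGFB1 and 0, 2034 and 1094 bp in Ctrl, so the regions of a single gene differed among themselves.

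RNA-binding and splicing genes had only near regions, 16 from 46 genes, all covered in TGFB1 and Ctrl and 11 in TGFB1+miR-9-LOF. All 11 were shorter in TGFB1+miR-9-LOF than in TGFB1, with a median of -0.61, where 352 of 442 gene body regions were shorter, with a median of -0.45. By whole peaks, 437 of the 442 were shorter, with a median of -0.55, against -0.68 for these 11. Lost were 5 of 16 (31.25%, against 33.4% of near regions). Hnrnpu, a nuclear matrix RNA-binding protein, had 1633 bp in TGFB1+miR-9-LOF, 3130 bp in TGFB1 and 2862 bp in Ctrl. Srsf3, a splicing factor, had 2127, 2675 and 2848 bp. Actin cytoskeleton genes and their regulators had 10 regions from 56 genes, of which 4, 10 and 9 were covered. Kinase and growth factor receptor genes had 8 regions from 59 genes, of which 5, 8 and 8 were covered, and Fgfr2 had 1307, 2459 and 1784 bp.

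A list of 70 genes known for alternative or internal promoters had a region in 24, and 19 of their 26 regions were near. In TGFB1 over Ctrl 19 were longer and 4 shorter (median 0.09), and in TGFB1+miR-9-LOF over TGFB1 15 were shorter and none longer (median -0.68), with 10 of 26 lost. Over all gene body regions 377 of 719 were longer in the first comparison, and in the second 352 of 442 were shorter, with a median of -0.45. Lost were 42.2% of gene body regions and 33.4% of near regions. By whole peaks, the second comparison had 16 of 16 regions of the list shorter (median -0.69), against 437 of 442 gene body regions (median -0.55). Pde4d, a cAMP phosphodiesterase with many start sites, had far regions of 0 bp in TGFB1+miR-9-LOF, 1881 bp in TGFB1 and 1757 bp in Ctrl, and of 0, 1843 and 2290 bp. Runx1 had 0, 2479 and 2088 bp at a deposited distance of 3098 bp. Rgs3, a regulator of G protein signalling, had 1332, 1576 and 1270 bp and was the far region of the list with a peak in TGFB1+miR-9-LOF.

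Genes with far peaks often had no peak at their other starts. For 171 of the 175 far regions the host gene had a RefSeq start elsewhere. A peak within 1000 bp of such a start that did not overlap the internal region was called a host promoter peak. A peak that spanned both thus counted as internal only. Among regions with an internal peak, a host promoter peak was present in 12 of 42 in TGFB1+miR-9-LOF (28.6%, 17.2 to 43.6), in 76 of 162 in TGFB1 (46.9%, 39.4 to 54.6) and in 58 of 138 in Ctrl (42.0%, 34.1 to 50.4). In TGFB1, 86 internal peaks thus lacked one. Examples were Tns1, an adaptor of focal adhesions, the membrane protein gene Tm4sf1, Nup160 of the nuclear pore, Mical3, a monooxygenase that acts on actin, and the forkhead repressor Foxn3.

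Where both were present in TGFB1, the internal peak usually scored lower, in 54 of 76 pairs (71.1%, 60.0 to 80.0), with medians of 62.5 for the internal and 79 for the host promoter peak. In Ctrl it did in 42 of 58 pairs (72.4%). For Tns3, another tensin of focal adhesions, the internal region at a deposited distance of 196879 bp, inside which GENCODE places a start, had 1467 bp in TGFB1+miR-9-LOF, 2044 bp in TGFB1 and 2346 bp in Ctrl. Its host promoter peak measured 1643 bp in TGFB1+miR-9-LOF, 2017 bp in TGFB1 and 1877 bp in Ctrl. Of 54 far regions lost in TGFB1+miR-9-LOF whose host promoter had a peak in TGFB1, the host promoter peak was kept in 24 (44.4%, interval up to 57.6). Where the internal peak was kept, it was 12 of 22 (54.5%, interval from 34.7). The intervals overlap. Of the 33 gained far regions with a host start elsewhere, 14 already had a host promoter peak in Ctrl.

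**Figure D5:**
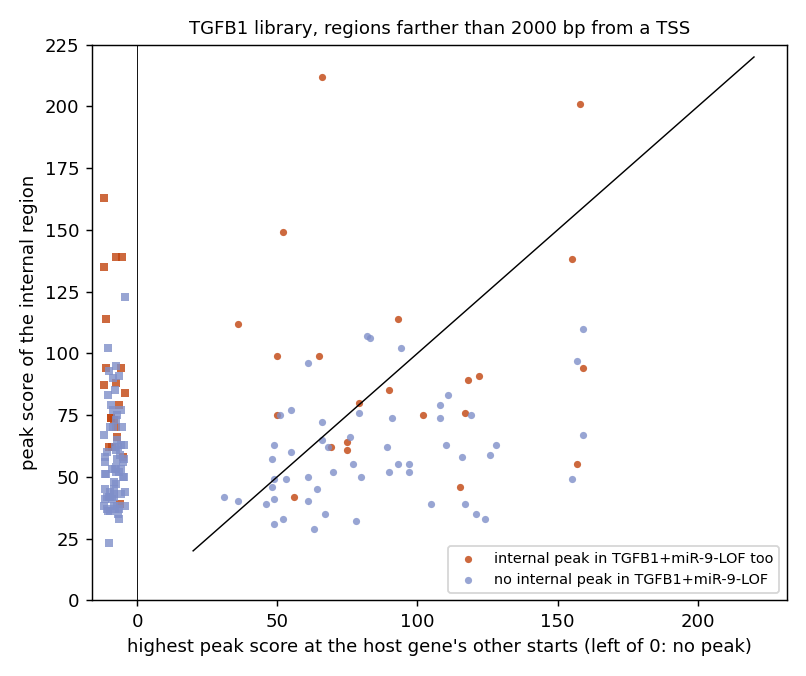
Peak score in TGFB1 of the internal peak (y axis) against the highest score at the host gene's other starts (x axis) for far regions, coloured by whether TGFB1+miR-9-LOF also had the internal peak, with the line of equal score. Most pairs (54 of 76) lie below the line, and the 86 regions without a host promoter peak stand as squares to the left of 0.

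For 18 far regions the nearest start was that of a microRNA gene, and 14 of these regions lay upstream of it, the side on which a primary transcript would begin. Distances to the microRNA ran from 2673 bp (Mir339) to 217571 bp (Mir1904). Some of the regions, as in Hdac5, Rnf213 and Pde4d, held an annotated start of the host gene. Whether any of them marks a microRNA promoter was not tested. The 18 regions were covered in 1 case in TGFB1+miR-9-LOF, 15 in TGFB1 and 17 in Ctrl, where the shares over all far regions were 24.6%, 94.9% and 80.6%. Wwp2, a ubiquitin ligase gene that carries Mir140, was the exception, with 1492 bp in TGFB1+miR-9-LOF, 2290 bp in TGFB1 and 1974 bp in Ctrl, at 4815 bp before the microRNA. Dleu2, the host of Mir15a, had 0, 2416 and 2113 bp over the CpG-rich site printed above. Lncpint, whose region lay 62091 bp upstream of Mir29b-1, had 0, 2669 and 2718 bp. These were among the widest far regions without a peak in TGFB1+miR-9-LOF, and TGFB1 and Ctrl were alike there. At Vmp1, upstream of Mir21a, a microRNA raised by TGFB1 in many cells, only Ctrl had a peak, 16976 bp before the microRNA. That peak was near the floor, with 1025 bp where no peak was shorter than 1000 bp. Its score was 34, against a median of 58 for far regions in Ctrl, so it is a borderline call in 1 library. Mature microRNAs were not measured in these libraries.

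Copied sequence was more frequent among far regions than at promoters. A region was called copied when at least 50% of its 32-mers occurred more than once in the assembly, and tandem when at least 20% recurred inside it. Copied were 11 of 175 far regions (6.29%, 3.55 to 10.9), against 0.655% of near, 0.593% of promoter and 6.85% of intergenic regions. Tandem were 5 far regions (2.86%), against 0.0233% of promoter regions. Short reads from such sequence may not be placed uniquely, so the 17 gene body regions that met either definition, 13 of them far, are uncertain.

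They included some of the most prominent members. Akap9, an anchor of protein kinase A at the Golgi and centrosome, had the highest far scores (113 in TGFB1+miR-9-LOF, 212 in TGFB1 and 149 in Ctrl) over a region in which 83.3% of 32-mers recurred. The Zswim6 region, covered in TGFB1 only (1195 bp), had 100% of its 32-mers more than once, inside the region and with a median of 43 copies, and Cntnap5b, the farthest region, had 99.9% more than once in the assembly. The 4 regions on chromosome 4 in 4933409K07Rik and Gm3893 had 20 to 23 copies. Without these regions, 38 of 153 far regions covered in TGFB1 kept a peak in TGFB1+miR-9-LOF (24.8%) and 29 were gained in TGFB1, so the far shares rested little on them.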

How the data were processed

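The deposited lists, 1 per library, hold peaks called by the authors and annotated with HOMER on mm10. Per the submitters' processing notes, Trimmomatic, Bowtie2, Picard 1.119, deepTools 3.5.1, MACS3 and bedtools were also used. Broad calling with a 1000 bp extension is stated for CUT&Tag and in the reporting summary. An input control and the read depth were not given in the sources used here. The score was deposited by the authors as a value per peak that is not scaled between libraries. Other deposited values were starts, ends and distances. No peak was shorter than 1000 bp, so a region that would fall below this length is missing instead, and depth or ChIP enrichment could change peak number and length.

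Gene body peaks were merged across lists where they overlapped by at least 1 bp, and the host was the transcript named in the annotation (786 of 786 matched). Python 3.11.15, pandas 2.3.3, NumPy 2.4.6, SciPy 1.17.1, pysam 0.24.0 and matplotlib 3.10.9 were used, and the steps were tested on simulated lists. Named were the largest regions, the largest changes and gains or losses of each contrast and members of the lists, and the text gives fewer, since some items are not reported here. Members and gene lists were chosen with earlier results of these data known. Alternatives changed the distance limit, score, overlap, bounds, coverage, island and length definitions, and list length.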

Additional observations from a re-analysis of the deposited data

How the results depend on the processing

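Of 93 alternative values, 51 moved beyond counting error or by more than 1.5 times and 42 did not. The balance of gains and losses of TGFB1+miR-9-LOF turned round in lists of equal length. Those lists kept TGFB1 peaks only from a score of 85 and Ctrl peaks only from 74, so gains there can be peaks that the cut removed. No paired analysis was possible because each group had 1 library, and no replicate could be left out. Depth is unknown, the shortest callable peak limits what can be seen as narrowing, and the causes of these movements were not tested.

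With a distance over 2000 bp, regions with a peak numbered 56 in TGFB1+miR-9-LOF, 188 in TGFB1 and 163 in Ctrl. Then 9 were lost in TGFB1 over Ctrl, 0 were gained and 132 lost in TGFB1+miR-9-LOF over TGFB1, and 109 were lost over Ctrl. A start lay in 51.8% and a CpG island window in 76.6% of regions, and broad peaks were 3.95% in TGFB1 and 3.36% in Ctrl.

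With a score of at least 60, the regions numbered 84 in TGFB1+miR-9-LOF, 475 in TGFB1 and 422 in Ctrl. TGFB1 over Ctrl had 87 gained and 34 lost, TGFB1+miR-9-LOF over TGFB1 had 1 gained with a median of -0.33, and over Ctrl 0 gained with a median of -0.29. Start and island shares were 71.1% and 93.1%.

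With lists of equal length, chosen after seeing the data, 366 regions had a peak in TGFB1 and 357 in Ctrl. TGFB1 over Ctrl lost 56, TGFB1+miR-9-LOF over TGFB1 gained 104 and lost 48 (median -0.36), and over Ctrl gained 112 and lost 47 (median -0.35). Beyond 2000 bp, TGFB1+miR-9-LOF over Ctrl then gained 28 and lost 12 of 39.

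With gene body peaks alone as coverage, 160 were gained and 141 lost in TGFB1 over Ctrl (median 0.042), 113 were gained in TGFB1+miR-9-LOF over TGFB1 (median -0.54) and 112 over Ctrl (median -0.47). Bounds from all merged peaks gave medians of 0.041, -0.53 and -0.47 for TGFB1 over Ctrl, TGFB1+miR-9-LOF over TGFB1 and over Ctrl, and 195 regions lost over Ctrl. The widest overlapping peak gave 0.052, -0.55 and -0.48. Requiring 50% cover gave -0.40 for TGFB1+miR-9-LOF over TGFB1.

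Starts within 500 bp were found for 88.2% of regions, and island criteria over the whole region were met by 42.5%. With the upper quartile of merged region width (2075 bp) as limit, broad peaks were 5.19% in TGFB1+miR-9-LOF, 45.6% in TGFB1 and 39.96% in Ctrl. Leaving out copied or tandem regions, also chosen after seeing the data, moved none of these values beyond those limits.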

Other observations

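Of the 766 host genes, 16 had more than 1 gene body region, 36 regions in all, and the regions of a gene often differed. Pax3, a developmental transcription factor, had a near region with whole peaks of 1835 bp in TGFB1+miR-9-LOF, 2467 bp in TGFB1 and 2605 bp in Ctrl, and a far region covered in TGFB1 only (1016 bp). Klf3, a Krüppel-like repressor, had a near region with whole peaks of 0 bp in TGFB1+miR-9-LOF, 1720 bp in TGFB1 and 2019 bp in Ctrl and a far region covered in TGFB1 only (1495 bp). In Vgll4, a cofactor that competes with YAP for TEAD factors, both regions were covered in every library, the far one over 1143, 1569 and 1405 bp and the near one with whole peaks of 1924, 2045 and 2345 bp in the order TGFB1+miR-9-LOF, TGFB1 and Ctrl.

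In Mast4, a microtubule-associated kinase gene, the region at a deposited distance of 145141 bp had 1802, 1933 and 1991 bp, and the region at 197662 bp had 0, 1926 and 1064 bp. Both held a GENCODE start. In the homeobox gene Hoxb3, 1 far region had 0, 1069 and 1288 bp and the other had 0, 1225 and 0 bp. Chaserr, a non-coding RNA next to the remodeller gene Chd2, had 2 near regions, of 0, 2204 and 1679 bp and of 0, 2277 and 1956 bp. These genes were chosen after their values were seen, for having several regions, and the differences have no replicate check.

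With lists of equal length, gene body peaks made up 6.21% of the list in TGFB1+miR-9-LOF, 4.80% in TGFB1 and 4.86% in Ctrl, whereas the shares were nearly equal in the full lists. The lowest score kept was then 22 in TGFB1+miR-9-LOF, 85 in TGFB1 and 74 in Ctrl. Which of depth, ChIP enrichment or treatment goes with this cannot be told apart with 1 library per group.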
